A study of Homo sapiens with 10 samples.

Results

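Genes of the cardiac sarcomere, 8 in number (TNNT2, TNNI3, TNNC1, ACTN2, ACTC1, MYL2, MYL7 and MYBPC3), were examined in a list of nucleosome positions from undifferentiated human induced pluripotent stem cells (hiPSCs). They were chosen by name as heart muscle genes that are not expected to be active in hiPSCs, and each was taken with 5 kb on either side of its gene body. They are 8 of the 18842 autosomal protein-coding genes of the GENCODE release 44 annotation on GRCh38, and their regions held 1314 of the 12921589 deposited positions. The cells, the hiPSC line PB010.5 with a FUCCI fluorescent reporter of the cell cycle, were digested for 5 min with micrococcal nuclease (MNase), an enzyme that cuts exposed DNA between nucleosomes, in 5 amounts from 0.5 U to 10 U, with 1 U, 3 U and 6 U between them. Each enzyme amount gave 1 library, to which yeast nucleosomal DNA had been added, and each library was read as a 150-bp and a 50-bp paired-end run, so that the 10 samples are 5 libraries read at both lengths. The authors pooled runs into a single list that gives no value for any enzyme amount, so effects of digestion were not analysed here, and no replicate error exists for any value below. The paper's methods describe the 50-bp runs as unsuited to nucleosome profiling and do not name the runs behind the list. RNA was not measured, so the silence of these genes in these cells was not checked against expression, and no heart cell was compared.

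Each deposited position is an interval of 140 bp with a score, a signal that is never negative and whose scaling by the authors is not stated. The scores advance in steps of 1.23, the median over the list is 14.8, and the quartiles are 9.87 and 19.7. The reads behind a score are unknown, so a score was taken as no more exact than 1 step. A location was taken as no more exact than 10 bp, because 94.4% of the midpoints lie on a 10-bp grid. Positions and genes are not replicates, and no p-value is given. Instead, each gene was ranked among the 1000 autosomal protein-coding genes nearest to it in GC content over the 1000 bp centred on the start of its Ensembl canonical transcript. A percentile below is the share of those genes with a smaller value, with ties split evenly.

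The sarcomere is the contractile unit of striated muscle, in which myosin filaments slide along actin filaments that are anchored at the Z-disc. Calcium starts contraction by binding to the troponin complex on the actin filament, and in the heart this complex is built from cardiac troponin T (TNNT2), which attaches it to tropomyosin, cardiac troponin I (TNNI3), the inhibitory subunit, and troponin C (TNNC1), the calcium sensor. ACTN2 encodes alpha-actinin 2, the Z-disc crosslinker of actin, and ACTC1 encodes cardiac alpha-actin itself. MYL2 and MYL7 encode the ventricular and atrial regulatory light chains of myosin, and MYBPC3 encodes cardiac myosin-binding protein C, a thick filament protein. At an active promoter a stretch upstream of the transcription start is usually poor in nucleosomes, and a well-placed nucleosome, called +1, follows the start.

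The promoters of these genes differ in sequence, and 5 of them are printed here because the positions of the start region lie on or beside the boxes that they hold. Each run covers the 160 bp before the canonical start on GRCh38, read 5′ to 3′ in the direction of transcription. Capitals mark TATAAA, then GGGCGG and also CATTCC or their reverse complements, the CArG box bound by serum response factor, and the MEF2 site. TNNT2 and MYL2 are left out because exons of their other coding transcripts overlap this stretch, and the TNNC1 run is not shown.
TNNI3 (chr19:55157733-55157892, minus strand): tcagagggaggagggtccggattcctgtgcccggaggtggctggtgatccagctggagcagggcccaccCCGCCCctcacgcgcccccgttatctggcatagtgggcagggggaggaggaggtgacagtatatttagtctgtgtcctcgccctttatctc
ACTN2 (chr1:236686339-236686498, plus strand): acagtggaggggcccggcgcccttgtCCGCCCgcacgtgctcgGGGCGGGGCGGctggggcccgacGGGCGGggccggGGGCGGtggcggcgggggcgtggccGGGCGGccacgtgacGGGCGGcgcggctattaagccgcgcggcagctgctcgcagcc
ACTC1 (chr15:34795550-34795709, minus strand): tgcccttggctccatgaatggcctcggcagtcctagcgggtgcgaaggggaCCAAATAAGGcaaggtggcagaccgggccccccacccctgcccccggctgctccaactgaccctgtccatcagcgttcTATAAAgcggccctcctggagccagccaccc
MYL7 (chr7:44141333-44141492, minus strand): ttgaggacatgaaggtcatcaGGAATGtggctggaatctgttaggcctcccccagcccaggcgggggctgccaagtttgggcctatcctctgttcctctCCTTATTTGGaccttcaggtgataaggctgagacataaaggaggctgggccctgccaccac
MYBPC3 (chr11:47352703-47352862, minus strand): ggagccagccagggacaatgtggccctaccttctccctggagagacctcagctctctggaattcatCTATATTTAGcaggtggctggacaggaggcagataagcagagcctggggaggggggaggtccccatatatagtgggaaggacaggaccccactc

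ACTN2 stands apart among these sequences. Its 250 bp before the start held 38 CpG dinucleotides, whereas the other 7 genes held between 2 (MYL7 and MYBPC3) and 9 (MYL2), and the median over all 18842 promoters was 18 with quartiles of 7 and 27. GC content over the 1000 bp around the start ran from 51.7% in MYL2 through 55.7% in TNNT2, 57.3% in MYBPC3, 58.2% in TNNC1, 59.9% in MYL7, 64.4% in ACTC1 and 65.6% in TNNI3 to 71.3% in ACTN2. The genes of the 8 comparison sets lay between 50.3% and 72.2% in promoter GC, and 7375 different genes served in at least 1 set.

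At the canonical starts, no member lacked a position just upstream. All 8 had a midpoint within the 200 bp before the start, whereas 24.7% of all autosomal protein-coding genes had none, and the share without one was 20.6% to 29.6% in the 8 comparison sets. The flanking distance, from the last midpoint before the start to the first one after it, reached 300 bp in none of the 8, against 28.3% of all genes. The start itself lay inside a position in 5 of 8 genes (TNNT2, ACTC1, MYL2, MYL7 and MYBPC3), against 51.3% of all genes, which is close to the background for so few genes. The first midpoint downstream scored above 90% of its chromosome in 4 of 8 genes, against 37.7% of all genes. With a background of 24.7% or 28.3%, a count of 0 among 8 genes is a small departure in number, and it was not tested. The first count became 1 of 8 with the 5′-most start of each gene (TNNT2), and also 1 of 8 with the positions at or above the median score only (ACTN2).

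**Figure D1:**
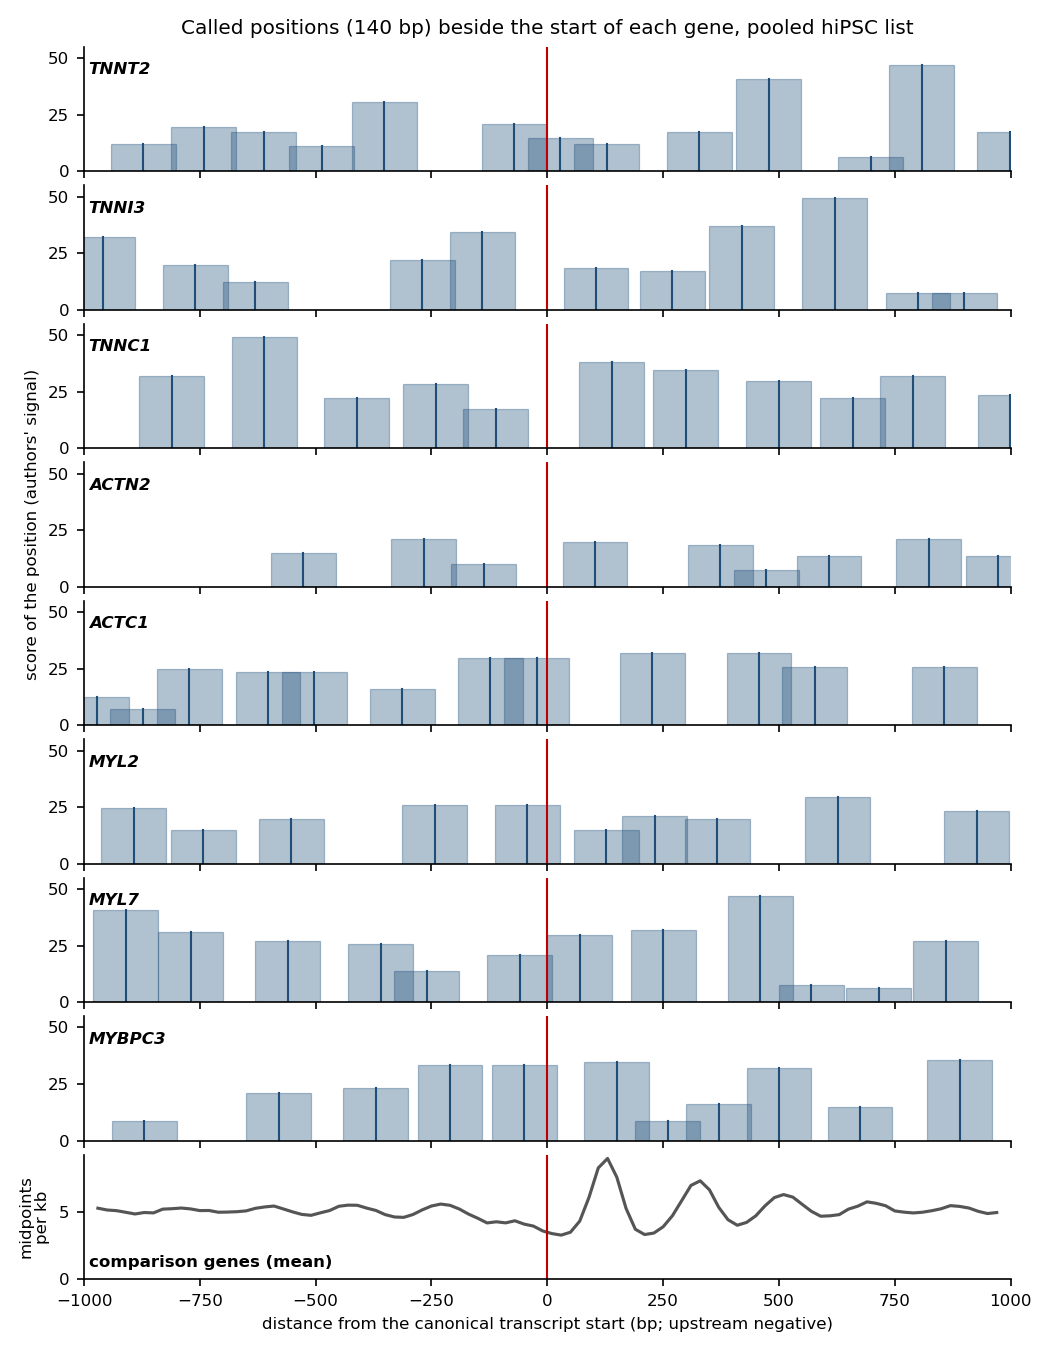
Positions within 1000 bp of the canonical start of each member (x axis, bp, upstream negative), drawn as 140-bp boxes with the score as height and a line at the midpoint, above the mean density of midpoints per kb over the comparison genes of the 8 members (bins of 20 bp smoothed over 3 bins). The red line marks the start. It lies in a box in TNNT2, ACTC1, MYL2, MYL7 and MYBPC3 and between boxes in TNNI3, TNNC1 and ACTN2, while the density of the comparison genes is highest, 9.0 per kb, between 120 and 140 bp.

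The 3 troponin genes differed from each other at their starts. TNNT2 (ENSG00000118194, chr1:201359008-201377764, minus strand) had a midpoint 72 bp upstream of its start with a score of 21.0 and another 28 bp downstream with a score of 14.8. These positions overlapped each other by 40 bp and covered the start, and the distance of 100 bp between them was at percentile 1.45 of the genes of like GC. No neighbouring midpoints in the 8 regions lay closer than 100 bp, and a change of 10 bp would place this distance between percentiles 0.0 and 4.0. A further midpoint followed at 128 bp with a score of 12.3. The score of 14.8 downstream was low for the first position after a start, at percentile 18.1, and the strongest positions near this start lay deeper in intron 1, with scores of 40.7 at 478 bp and 46.9 at 808 bp.

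TNNI3 (ENSG00000129991, chr19:55151767-55157773, minus strand) also had the higher score upstream, 34.5 at 140 bp upstream and 18.5 at 105 bp downstream. The upstream score was at percentile 85.4 and the downstream score at percentile 28.3. Between the 2 positions, 105 bp around the start were free, and the distance of 245 bp was in the middle of the comparison genes, at percentile 57.5. Deeper in TNNI3, a position with a score of 49.4 at 620 bp lay over exon 3, and 7.40 was reached at both 800 and 900 bp.

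TNNC1 (ENSG00000114854, chr3:52451100-52454041, minus strand) had a score of 17.3 at 111 bp upstream and of 38.2 at 139 bp downstream, with 110 free bases between the intervals and a distance of 250 bp at percentile 53.3. Its downstream position was the strongest of the 8, at percentile 79.2 of the genes of like GC and above 99.1% of the positions on chromosome 3. It was also the member whose region had the largest share of neighbour distances of 160 to 210 bp. Upstream of the start the midpoints lay at -811, -611, -411, -241 and -111 bp, and downstream at 139, 299, 499, 659, 789 and 999 bp. In the whole TNNC1 region, 55.4% of the distances between neighbouring midpoints were 160 to 210 bp, at percentile 99.9 of the genes of like GC, where the median was 31.4% and the quartiles 28.6% and 34.5%. In the other 7 genes the share was 31.5% to 40.0%. The TNNC1 region holds only 74 distances between neighbours, and the window of 160 to 210 bp was set with the usual spacing of this list already known. Of the 75 positions in the region, 57 lay in the flanks, and NISCH begins in the upstream flank.

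The Z-disc gene ACTN2 and the actin gene ACTC1 had starts of unlike layout but of like distance. ACTN2 (ENSG00000077522, chr1:236664141-236764631, plus strand) had the weakest upstream position of the 8, with a score of 9.87 at 137 bp before the start, and a score of 19.7 at 103 bp after it. The upstream score was at percentile 20.4 and the downstream score at percentile 42.9. The start lay in 100 free bases, and the distance of 240 bp was at percentile 54.2. Nothing within 1000 bp of this start scored above 21.0, the lowest such maximum of the 8 genes.

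ACTC1 (ENSG00000159251, chr15:34790107-34795589, minus strand) had midpoints at 123 and 23 bp upstream, both with a score of 29.6, and was the only member with 2 midpoints in the 200 bp before the start. The start lay inside the nearer position. The next midpoint was 227 bp downstream with a score of 32.1, a distance at percentile 96.6 of the genes of like GC, where the median was 111 bp. The other 7 genes had this midpoint between 28 bp (TNNT2) and 150 bp (MYBPC3). The distance across the ACTC1 start was 250 bp, at percentile 57.5, since the upstream midpoint lay close to the start as the downstream one lay far from it.

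The 3 genes of the thick filament all had the start inside a position centred 43 to 60 bp upstream. In MYL2 (ENSG00000111245, chr12:110910819-110921443, minus strand), a midpoint at 43 bp upstream scored 25.9 and a midpoint at 127 bp downstream scored 14.8, a distance of 170 bp at percentile 26.2. In MYL7 (ENSG00000106631, chr7:44138864-44141332, minus strand), the upstream midpoint lay at 60 bp with a score of 21.0 and the downstream midpoint at 70 bp with a score of 29.6. The intervals in MYL7 overlapped by 10 bp, and the distance of 130 bp was at percentile 7.35, the lowest after TNNT2. In MYBPC3 (ENSG00000134571, chr11:47331406-47352702, minus strand), the scores were nearly equal, 33.3 at 50 bp upstream and 34.5 at 150 bp downstream, with a distance of 200 bp at percentile 34.3. The downstream scores ranked at percentiles 20.3 in MYL2, 56.1 in MYL7 and 70.6 in MYBPC3.

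Across the 8 genes the flanking distance was 100 to 250 bp with a median of 220 bp, against 230 bp over all genes. It was above the median of the genes of like GC in TNNI3, TNNC1, ACTN2 and ACTC1 and below it in the other 4. With only the positions at or above the median score of the list, it was above that median in 1 gene. The first downstream score was above that median in TNNC1, ACTC1, MYL7 and MYBPC3, and below it in the other 4. Moving a score by 1 step or a distance by 10 bp left every member on its side of the 50th percentile except TNNC1 and ACTN2, whose distances fell to percentiles 49.4 and 49.6 when 10 bp were taken away. Counted in windows, the members held 1.125 midpoints per gene in the 200 bp before the start, against a mean of 0.863 in the comparison genes, and 1.00 against 1.09 in the 200 bp after it. From 200 to 1000 bp downstream they held 4.75 against 4.15.

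**Figure D2:**
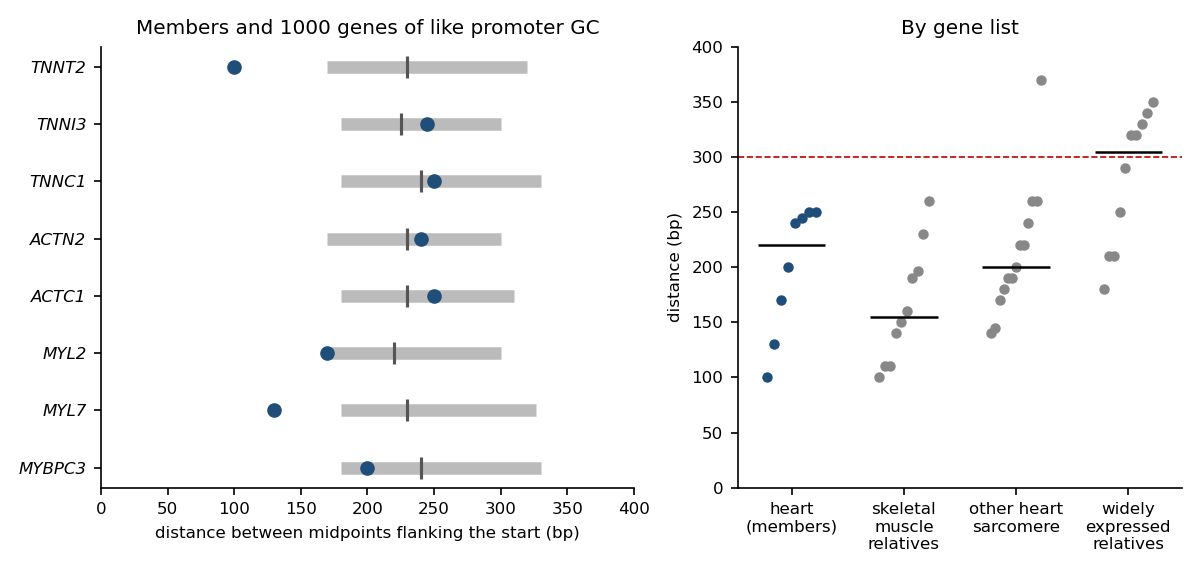
Flanking distance in bp across the canonical start. On the left, each member (point) is set against the quartiles (bar) and the median (line) of its 1000 genes of like promoter GC, and TNNT2 and MYL7 lie below the bar at 100 and 130 bp. On the right, each point is a gene, the black line is the median of its list (220, 155, 200 and 305 bp), and the dashed line marks 300 bp, which no member and no skeletal muscle relative reaches.

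Relatives of the members give a scale for these distances. The lists were 10 widely expressed relatives (non-muscle actinins, actins and myosin light chains, and calmodulins), 10 relatives of skeletal muscle, and 13 other heart sarcomere genes. The median distance was 305 bp in the widely expressed relatives, from 180 bp in ACTN4 to 350 bp in ACTB, and 5 of 10 reached 300 bp. It was 155 bp in the skeletal muscle relatives, from 100 bp in TNNC2 to 260 bp in ACTA1, and 0 of 10 reached 300 bp. In the other heart sarcomere genes it was 200 bp, from 140 bp in MYOZ2 to 370 bp in FLNC, and 1 of 13 reached 300 bp. No midpoint lay in the 200 bp before the start in 2 widely expressed relatives, 0 skeletal muscle relatives and 1 other heart gene. The widely expressed relatives also differ in base content, with a median promoter GC of 67.5% against 59.1% in the members, 58.1% in the skeletal muscle relatives and 56.3% in the other heart genes. Ranked within like GC, the median percentile of the distance was 73.6 for the widely expressed relatives, 43.8 for the members, 18.9 for the skeletal muscle relatives and 45.1 for the other heart genes. The downstream position scored above 90% of its chromosome in 7 of 10 widely expressed relatives, 6 of 10 skeletal muscle relatives and 5 of 13 other heart genes. Some genes in these lists share a family with a member, and none of the differences between lists was tested.

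All annotated starts were then examined in the same way. The 8 genes have 73 distinct transcript starts, 29 of them of coding transcripts, and many of them share the same flanking positions. A midpoint was missing from the 200 bp upstream at 4 of the 73 starts (5.48%), and 49 (67.1%) lay inside a position. No share over all annotated starts was computed beside these counts. Many of the 73 starts are internal, so the shares given above for canonical starts are not their background. The distance across the start was 100 to 570 bp with a median of 210 bp. A distance of 300 bp or more occurred at 2 starts. The longer of them, 570 bp, was at the start of a non-coding transcript inside ACTN2, 64700 bp downstream of the canonical start, and the other, 350 bp, was inside TNNC1. The 570-bp start was among those without an upstream midpoint, whereas the 350-bp start had a midpoint 111 bp upstream. A further internal start of ACTN2, with a distance of 280 bp, also had no upstream midpoint. The same held for the pair of 5′-most starts of TNNT2, 82 and 84 bp upstream of the canonical start, which share a distance of 280 bp. At these TNNT2 starts the covering position is the one centred 72 bp upstream of the canonical start. The 5′-most ACTN2 start lies at -22358 bp from the canonical one in a promoter of 43.7% GC, and there a position with a score of 17.3 centred 29 bp upstream covered the start.

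The motif matches in the promoters were set against the same positions. Motifs were sought as letters on both strands in the 250 bp before each canonical start, and a match is not evidence of binding. TATAAA, the core of the TATA box, matched in ACTC1 alone and in 9.30% of the 18842 promoters. This ACTC1 match, from 31 to 26 bp before the start, lay 5.5 bp from the midpoint of the position that covers the start. The CArG box matched in ACTC1 and MYL7 and in 1.15% of promoters, and both matches lay inside a position, the MYL7 one 3.5 bp from its midpoint and the ACTC1 one 18.5 bp from its midpoint. The MEF2 site matched in MYBPC3 and in 0.467% of promoters, 39.5 bp from the midpoint of the position over that start.

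CATTCC, the core of the M-CAT element bound by TEAD factors, matched in TNNT2, TNNC1 and MYL7 and in 9.79% of promoters. The TNNT2 match lay 6.5 bp from a midpoint and the TNNC1 match inside the upstream position, while the MYL7 match lay outside any position. GGGCGG, the core of the GC box, matched in TNNI3 and ACTN2 and in 59.7% of promoters, with 8 matches in ACTN2 of which 6 lay inside a position. One pair of these ACTN2 matches shares a base. GATAA, bound by GATA factors, matched in TNNT2, TNNI3, MYL7 and MYBPC3 and in 15.8% of promoters, and CANNTG, the E-box, in every member except TNNC1 and in 56.3% of promoters. In MYL7 a GATAA and a CANNTG match share a base. Of all 33 matches in the 8 promoters, 21 (63.6%) lay inside a position, 1 partly and 11 outside. Positions covered 1525 of the 2000 bases searched (76.25%), from 56.4% in TNNT2 to 92.0% in MYBPC3, so the share of matches inside a position was not above the share of bases covered. The TATA and CArG boxes of ACTC1 printed above sit within 2 overlapping intervals, whereas in ACTN2 the run of GC boxes spans the edge of a position with a low score.

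Over the gene bodies with their flanks, TNNT2, TNNC1 and MYBPC3 were dense and high in score, and ACTN2 was neither. TNNT2 held 174 positions, 6.05 per kb, which was more than in 99.6% of the genes of like promoter GC, and their median score was 22.2, at percentile 97.8. TNNC1 held 75 positions, 5.80 per kb, and MYBPC3 held 181 positions, 5.78 per kb, at percentiles 95.3 and 95.2, and each also had a median score of 22.2. ACTN2, the longest at 110.491 kb, held 541 positions, 4.90 per kb at percentile 17.1, with a median score of 14.8 at percentile 21.0.

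The other 4 genes lay between these. MYL2 held 114 positions, 5.53 per kb at percentile 83.2, with a median score of 19.1 at percentile 86.7. MYL7 held 66, 5.29 per kb at percentile 57.4, with a median score of 21.0 at percentile 91.8. ACTC1 held 82, 5.30 per kb at percentile 54.3, and had a lower median score of 16.0 at percentile 42.9. Its 28 positions in the gene body had a median score of 22.2, against 14.8 for the 54 in the flanks. By promoter GC, TNNI3 was the only member below the median in density and above it in score. It had 81 positions, 5.06 per kb at percentile 34.4, and a median score of 19.7 at percentile 78.7. In all, 6 of 8 genes were above the median in density and 6 of 8 in score. ACTN2 was below it in both. Against genes whose region was between 0.5 and 2 times as long, the count was 4 of 8 in density and 6 of 8 in score. With the gene body alone it was 5 of 8 in density and 7 of 8 in score. The trait is not particular to the members. In density and score, 10 and 10 of 10 skeletal muscle relatives were above the median of genes of like promoter GC. The counts were 11 and 10 of 13 other heart genes, and 5 and 6 of 10 widely expressed relatives.

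The regions also differed in base content. In order of region GC, the median score rose or stayed level in every gene except TNNI3, which was highest in GC with a median score of 19.7. Density did not follow that order. GC over the whole region was 42.4% in ACTN2, 45.4% in ACTC1, 48.2% in MYL2, 54.6% in MYL7, 55.1% in TNNT2, 57.1% in MYBPC3, 57.2% in TNNC1 and 58.2% in TNNI3, and that of MYBPC3 was at percentile 98.4 of the genes of like promoter GC. Compared instead with the 1000 genes nearest in GC of the region, TNNT2 still stood high in density, at percentile 98.4, and TNNC1 and MYBPC3 fell to percentiles 82.5 and 80.3. The density of TNNI3 fell to percentile 7.0 and that of MYL7 to 15.8. That of ACTN2 rose to 26.8, and those of ACTC1 and MYL2 were at 53.5 and 67.8. The median score of ACTN2 was at percentile 40.0, with the same value of 14.8 as the median of those genes, against percentile 21.0 by promoter GC. The scores of the others were at percentiles 87.7 in TNNT2, 83.0 in MYL2, 79.8 in MYBPC3, 79.5 in TNNC1, 71.5 in MYL7, 37.6 in ACTC1 and 31.0 in TNNI3. By this measure 5 of 8 genes were above the median in density and 5 of 8 in score. TNNI3 was then below the median in both, and MYL7 was below it in density and above it in score. Within a region, Spearman's rho between the score of a position and its GC ran from 0.0155 over 81 positions in TNNI3 to 0.560 over 82 positions in ACTC1, and these positions share libraries and depth.

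**Figure D3:**
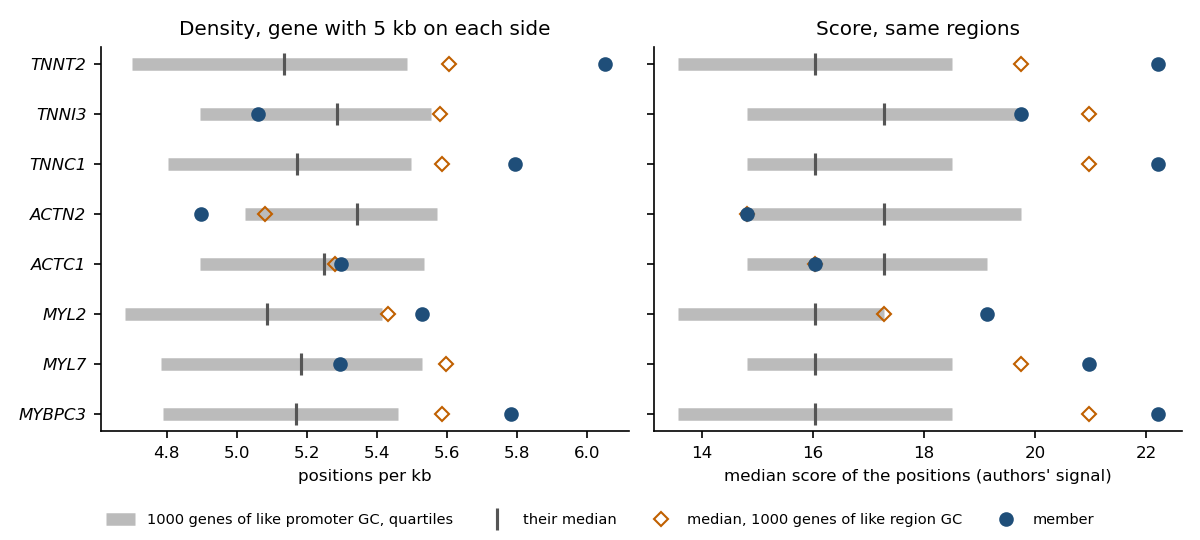
Positions per kb (left) and median score (right) over each gene with 5 kb on either side. Filled points are the members, bars and lines are the quartiles and median of the 1000 genes of like promoter GC, and open diamonds are the median of the 1000 genes of like region GC. In density, TNNT2 at 6.05 per kb lies above its bar and diamond and ACTN2 at 4.90 below them, while TNNI3 at 5.06 lies below both medians but inside its bar.

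The median distance from a midpoint to the next was 160 bp in TNNT2 and MYBPC3, 170 bp in TNNC1, ACTC1 and MYL2, 175 bp in ACTN2, 180 bp in MYL7 and 182.5 bp in TNNI3. The widest distance in ACTN2 was of another order. It was 3135 bp in intron 1, with no position over chr1:236712722-236715716, a stretch of 2995 bp with a GC content of 38.4%, and 99.9% of the distances on chromosome 1 were shorter. The stretch holds no unsequenced base, but of 5 runs of 50 bp sampled from it only 2 were unique in the genome and the most frequent had 25 copies. The part of repeated sequence in this gap was not tested. ACTN2 also held distances of 1820 bp in intron 17, 670 bp in intron 1 and 655 bp upstream of the canonical start. The only others of 600 bp or more were 650 bp at the 3′ end of ACTC1 and 630 bp in intron 5 of TNNI3. The ACTC1 stretch has a GC content of 33.7% and its 5 sampled runs were unique, whereas the TNNI3 stretch has 70.4% and 3 of 5 were unique. The widest distance was 490 bp in MYBPC3, 410 bp in MYL2, 400 bp in TNNC1 and MYL7 and 380 bp in TNNT2.

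The strongest position of each region mostly lay away from the start. It scored 58.0 in the TNNI3 region, in the downstream flank just upstream of the annotated start of TNNT1, the troponin T gene of slow skeletal muscle that follows on the same strand. It scored 53.1 in TNNT2 (intron 14) and in MYL2 (downstream flank), 49.4 in TNNC1, 46.9 in MYL7 (intron 2, 460 bp from the start), 44.4 in ACTC1 (intron 3) and in MYBPC3 (downstream flank, where MADD ends nearby) and 43.2 in ACTN2 (downstream flank). Only in TNNC1, at -611 bp, and in MYL7 was it within 1000 bp of the canonical start. It scored above 99.5% of the positions of the chromosome in ACTN2, and above a larger share in the other 7. The flanks belong partly to other genes, among them LAD1 beside TNNT2, DNAAF3 beside TNNI3, NISCH beside TNNC1, CCDC63 beside MYL2 and SPI1 beside MYBPC3. Other annotated genes also overlap the bodies and the canonical starts of TNNT2, TNNI3 and ACTC1. The values of a region are therefore not those of the member alone.

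**Figure D4:**
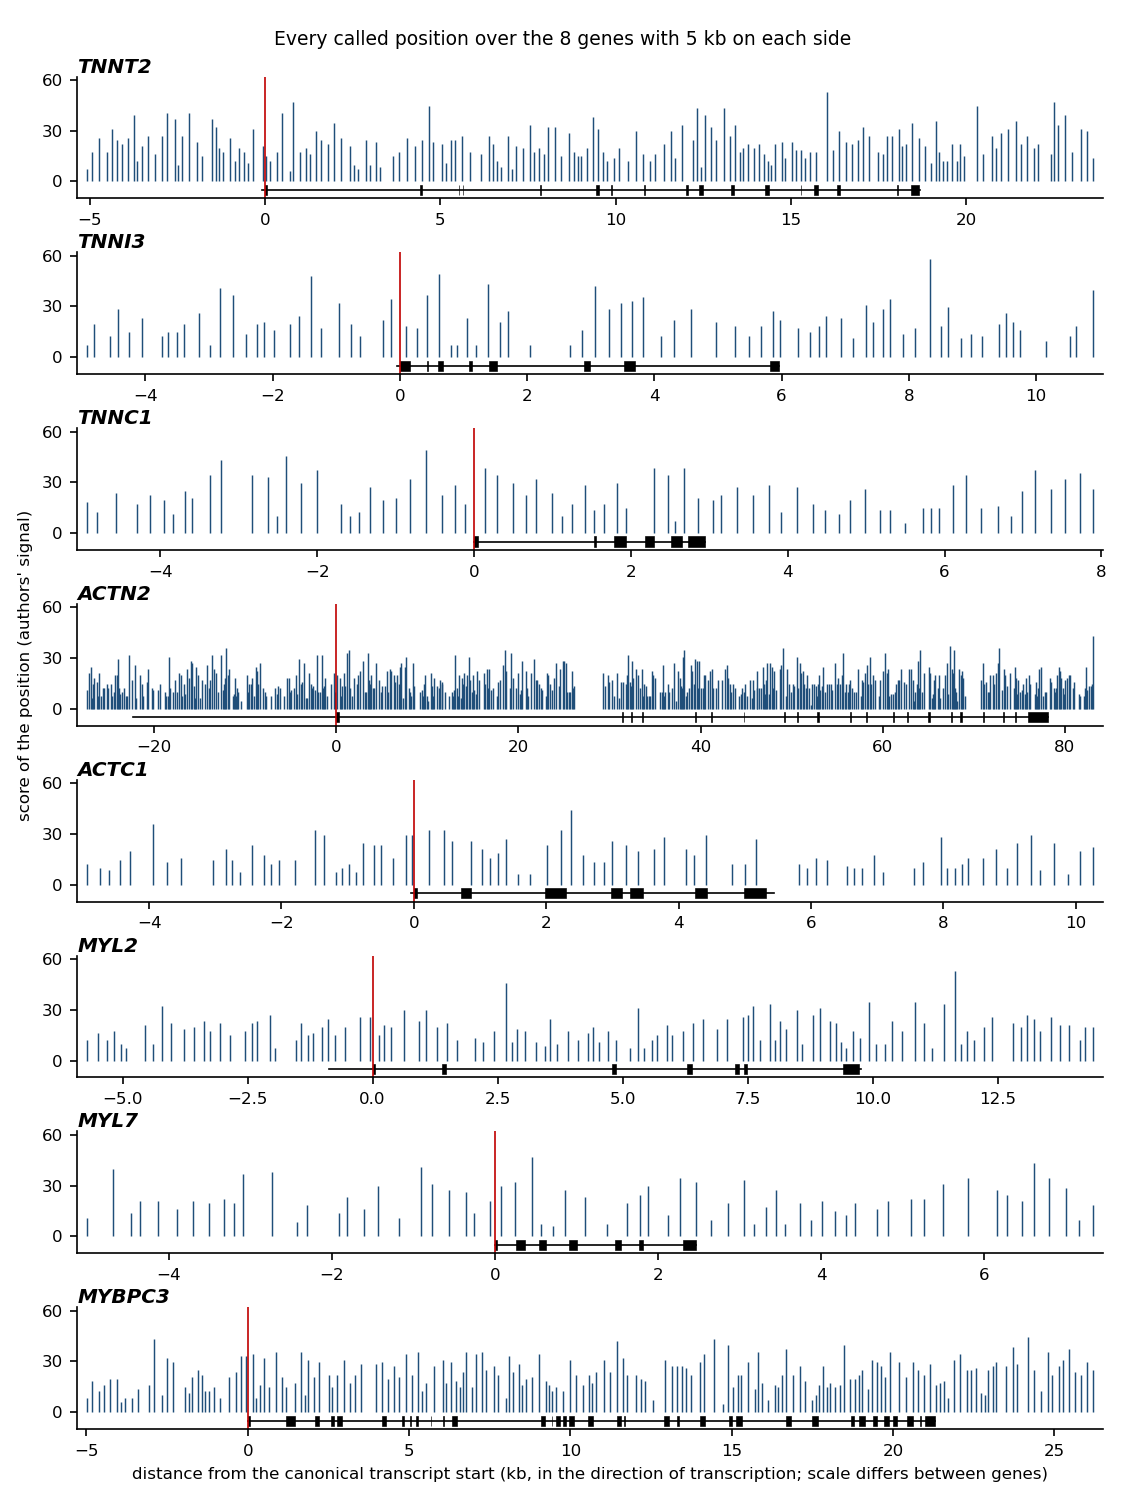
All 1314 positions over the 8 genes with 5 kb on either side, with the score as height (y axis) against the distance from the canonical start in kb in the direction of transcription (x axis, scale differing between genes). Black boxes are exons of the canonical transcript, the thin line is the gene and the red line its start. ACTN2 shows the wide gap of 3135 bp in intron 1, and TNNC1 shows midpoints 130 to 250 bp apart within 1000 bp of its start.

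Inside the gene bodies, the exonic share of positions was close to the exonic share of bases. Of 871 positions in the 8 bodies, 221 had at least 0.40 of their length in an exon of any transcript, 25.4% (95% exact binomial interval 22.5% to 28.4%, counting error only), while 22.9% of the bases were exonic. In exons of the canonical transcripts the share was 9.99% (8.08% to 12.2%) with 8.66% of the bases, and 59 of the 108 canonical exons held a midpoint. Both intervals include the share of the bases. A position can count as exonic with its midpoint outside the exon, so the shares of positions and of bases are unlike measures. With the midpoint inside an exon of any transcript, the share of positions was 24.2%. Neighbouring positions are also not independent, so the intervals do not decide whether exons hold an excess. The median score was 22.2 for the 87 positions in canonical exons and 17.3 for the other 784, at a median GC of 57.8% and 48.3%. These pooled medians mix the genes in unlike shares. ACTN2, whose body had the lowest median score of the 8 (14.8), gave 30 of the 87 positions but 486 of all 871. By gene the score in canonical exons was higher by at least 1 step in 3 genes (TNNI3, ACTN2 and ACTC1), lower by as much in 2 (MYL2 and MYL7), and within 1 step in the other 3. In TNNI3 it was 33.3 over 5 positions against 19.7, and in MYL2 it was 14.8 over 4 positions against 18.5. With exons of any transcript the medians were 18.5 and 17.3, and the exonic score was higher by at least 1 step in 2 genes (TNNI3 and MYL7), lower in 3 (TNNT2, TNNC1 and MYL2) and within 1 step in 3. The difference over all genes was not tested.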

How the data were processed

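MNase-seq of 10 samples of 1 hiPSC line was deposited with 1 pooled list, and the paper's methods do not name the runs pooled into it. The authors aligned the reads to GRCh38 and ran the nucMACC workflow, and the submitters' processing notes name Trimmomatic 0.40. The score of each position is a signal in the list as the authors deposited it, and its scaling and the read totals are not given in the sources used here. The midpoint of a position was its start plus 70 bp. Every position was used without a filter, and genes, exons and starts were those of GENCODE 44 (the paper's methods used 48). The members and lists were chosen with earlier results of these data known. All 8 members are named, and other genes only as the lowest and highest distance of a list (MYLPF was matched through a RefSeq synonym) or as neighbours. The widely expressed, skeletal muscle and other heart lists held 10, 10 and 13 genes. With 1 library per enzyme amount and 1 list there were no groups to compare and no test. The alternatives were other starts, positions, windows, comparison genes, regions and exons. The routines for flanking distances, upstream midpoints, covered starts, overlaps and percentiles were first tested on simulated data. All steps ran under Python 3.11.15 with pandas 2.3.3, SciPy 1.17.1, matplotlib 3.10.9 and NumPy 2.4.6. All coordinates are 1-based on GRCh38. A neighbouring gene and a promoter run are not reported here.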

Additional observations from a re-analysis of the deposited data

How the results depend on the processing

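Of 30 alternatives over 7 results, 26 left the result within its limit, a factor of 1.5, and 4 moved it. This limit is wide for counts out of 8. The fall in density from 6 of 8 to 4 of 8, against genes with regions 0.5 to 2 times as long, counted as within it. The number of members without a midpoint in the 200 bp upstream of the start was 0 and became 1 with the 5′-most start of each gene (TNNT2) and 1 with only the positions at or above the median score of the list. With those positions, the number of members with a flanking distance above the median of genes of like promoter GC fell from 4 to 1. The exonic share of the positions was 25.4% with exons of any transcript and 9.99% with canonical exons, where fewer bases are exonic. The number of members above the median was 4 to 7 of 8 in density and 5 to 7 of 8 in score. No library could be left out, since the list gives no value per library. No paired analysis was possible because no result comes from a test between groups. The unknown depth limits what a single score shows, and the 10-bp grid limits distances. Percentiles among genes of like promoter GC do not account for GC of the gene body, mappability or gene length unless stated.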
